A study of Mus musculus with 4 samples.

Results

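The Bcl2 family acts at the mitochondrion to set whether a cell lives or dies, and 10 of its genes are described here in brains of mouse embryos at embryonic day 15. They were chosen by name and fall into 3 roles: the pro-survival genes Bcl2, Bcl2l1 and Mcl1, the effectors Bax and Bak1, and the BH3-only genes Bbc3, Pmaip1, Bcl2l11, Bid and Bad. All 10 were found among the 20421 genes of the authors' table. The table sets animals labelled WT against animals labelled FOXM1f/+;Nestin-Cre, both of the C57BL/6 strain, by RNA sequencing of brain. FOXM1 is a transcription factor of dividing cells, and the Nestin promoter drives Cre recombinase in neural progenitors. The series' title speaks of the human FOXM1 gene, and the labels do not say how the allele was built. GEO lists 4 samples, 2 per genotype, whereas the table has 1 column of read counts per genotype. Nothing in the sources used here tells if 1 embryo or a pool stands behind a column. The sample titles in the WT group, "2nestin" and "4foxm1", point to different alleles, so the WT column may carry either. The columns are treated as a transgenic and a WT library, of 17856653 and 17543705 reads. Coordinates of genes are those of the table, which match GRCm38.

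Pro-survival proteins of the family bind the effectors and hold them inactive. BH3-only proteins respond to stress, DNA damage or loss of growth factors, and either occupy the pro-survival proteins or switch on the effectors directly. Active Bax and Bak1 open the outer mitochondrial membrane, cytochrome c leaves, and the caspases that dismantle the cell are switched on. In the embryonic mouse brain, loss of Mcl1 is known to kill neural precursors and loss of Bcl2l1 to kill newly formed neurons, while loss of Bax leaves surplus neurons alive.

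The series' title concerns what the FOXM1 allele does in the brain, and the question here is whether genes of cell death differed between the genotypes. Each difference is between 2 libraries, has no replicate check and carries no test of the genotypes. Levels are CPM, read counts scaled to the size of the library, and a ratio is the transgenic CPM over the WT CPM. The bracketed 95% interval of a ratio is an exact conditional one that covers counting error only. The spread between embryos was not measured, and without molecular identifiers a read is no independent molecule. In whole tissue, fewer cells of a type and less RNA per cell cannot be told apart.

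Mouse Foxm1 had 1289 reads in the transgenic and 1139 in the WT library, a ratio of 1.11 (1.03 to 1.21). This counts the mouse gene and is no direct check of a human one. The libraries differed in sex content, with 9628 against 5 reads of Xist and 0 against 1266 reads of the Y-linked Eif2s3y, where a count of 0 allows up to 3 reads. They also differed in choroid plexus content. Of 6 measured markers, 5 had a counting interval below 1, against 19.2% of genes with a mean CPM of 1 or more. The list of 8 summed to 24.9 transgenic against 720.2 WT CPM, with no marker at 0. Neurons and radial glia of the labelled brain were present, with the neuronal tubulin Tubb3 at 2903 and 2947 CPM and the radial glia gene Fabp7 at 608.8 and 511.4 CPM. Genotype cannot be told apart from sex or plexus content in any ratio given here.

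The largest ratios in the family pointed in opposite directions. Bcl2, a pro-survival gene, had the highest ratio, and Bbc3 and Bid, both BH3-only genes, had the lowest. The DNA around a start of each of these 3 genes is shown because they carry the differences described below. Each run is 300 bases from RefSeq on GRCm38.p6, read 5′ to 3′ on the gene's strand, with 250 bases before and 50 bases after a RefSeq start. Such windows were found for 9 members, 15 windows in all, since several genes have more than 1 start.

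In the Bcl2 window, chr1:106714241-106714540 on the minus strand, the capitals mark TTTGAA, the core of the cell cycle homology region through which complexes holding FOXM1 are known to reach mitotic genes:
Bcl2: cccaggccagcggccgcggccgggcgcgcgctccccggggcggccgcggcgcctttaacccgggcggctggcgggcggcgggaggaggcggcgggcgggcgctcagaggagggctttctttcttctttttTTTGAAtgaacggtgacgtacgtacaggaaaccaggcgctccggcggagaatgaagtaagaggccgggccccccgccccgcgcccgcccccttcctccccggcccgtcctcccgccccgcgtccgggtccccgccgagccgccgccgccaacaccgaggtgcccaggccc

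In the Bbc3 window, chr7:16310011-16310310 on the plus strand, they mark GTAAACA as it reads from the opposite strand, letters that forkhead factors such as FOXO3 bind:
Bbc3: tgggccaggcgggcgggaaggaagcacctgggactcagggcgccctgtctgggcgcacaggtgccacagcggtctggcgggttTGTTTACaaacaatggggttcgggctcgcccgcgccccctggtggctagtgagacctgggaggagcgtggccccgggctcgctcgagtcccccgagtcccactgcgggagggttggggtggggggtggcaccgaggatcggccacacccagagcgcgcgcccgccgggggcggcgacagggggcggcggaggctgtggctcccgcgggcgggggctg

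In the Bid window, chr6:120916775-120917074 on the minus strand, they mark 3 copies of GGGCGG, the GC box:
Bid: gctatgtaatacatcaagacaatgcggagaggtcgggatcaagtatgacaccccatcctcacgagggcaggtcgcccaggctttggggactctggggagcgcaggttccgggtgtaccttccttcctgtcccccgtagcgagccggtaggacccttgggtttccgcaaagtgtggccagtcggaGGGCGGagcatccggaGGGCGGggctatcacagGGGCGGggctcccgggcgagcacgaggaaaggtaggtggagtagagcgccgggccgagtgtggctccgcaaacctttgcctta

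The TTTGAA of Bcl2 began 120 bases before the start, and the forkhead letters of Bbc3 began 167 bases before it. Windows were shown only where they held the letters chosen for that gene, and the other windows of Bbc3 held no GTAAACA. The end of the Bbc3 window shown was not found in a GENCODE transcript of the gene, unlike the ends of the Bcl2 and Bid windows. Over all 32851 RefSeq windows of this length, searched on both strands, TTTGAA was found in 17.9%, GTAAACA in 3.65%, GGGCGG in 35.7% and the p53 half-site in 8.36%. Among the windows of the members, GTAAACA was also found in Bcl2l11, TTTGAA also in Mcl1 and Bax, and the p53 half-site in Bax alone, where the match reads on both strands. GC boxes were found in windows of Bcl2, Bcl2l11, Mcl1, Bbc3, Bax and Bad as well as Bid. The windows shown for Bcl2 and Bbc3 held 7 and 4 GC boxes, which are not in capitals there. These are matches of letters, and no binding was measured.

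Bcl2 (ENSMUSG00000057329; chromosome 1, 106538178 to 106714274), the founding pro-survival gene, had 595 transgenic and 471 WT reads. At 33.3 against 26.8 CPM, its ratio was 1.24 (1.10 to 1.40). The transgenic library was the higher one, by more than counting error. Of the 14557 genes whose mean CPM was 1 or more, 1248 had a higher ratio than Bcl2. An antisense gene shares 558 (6.09%) of its exon bases.

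Mcl1 (ENSMUSG00000038612; chromosome 3, 95658788 to 95663176), a short-lived pro-survival protein, had 2979 reads in the transgenic and 2717 in the WT library. At 166.8 against 154.8 CPM, its ratio was 1.08 (1.02 to 1.14). The interval lay just above 1, and its log2 ratio of 0.11 was within the quartiles of all genes, -0.16 and 0.13.

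Bcl2l1 (ENSMUSG00000007659; chromosome 2, 152780668 to 152831728), which encodes Bcl-xL, had 3106 and 2932 reads. At 173.9 against 167.1 CPM, its ratio was 1.04 (0.989 to 1.10). It had the most reads of any member in both libraries, and the interval spanned 1. With other scaling it lay just above 1, from 1.0003 with TMM factors and from 1.007 with RLE factors.

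The effectors were near equal in the libraries. Bax (ENSMUSG00000003873; chromosome 7, 45461697 to 45466898) had 869 reads in each, or 48.7 transgenic and 49.5 WT CPM. Its ratio was 0.983 (0.893 to 1.08), which leaves room for a difference of up to 1.12-fold lower or 1.08-fold higher. Of its exon bases, 192 (12.2%) are shared with the overlapping gene Gm45808 on the same strand. Bak1 (ENSMUSG00000057789; chromosome 17, 27019810 to 27029009), the second pore-forming effector, had 328 against 353 reads, or 18.4 against 20.1 CPM. Its ratio of 0.913 (0.783 to 1.06) had an interval spanning 1.

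The BH3-only genes held the lowest ratios of the family. Bbc3 (ENSMUSG00000002083; chromosome 7, 16308393 to 16318205), which encodes Puma and is a known target of p53 and of FOXO3, had 424 reads in the transgenic and 572 in the WT library. At 23.7 against 32.6 CPM, it was 1.37-fold lower in the transgenic library (1.21 to 1.56). The difference exceeded counting error, and 1121 of the 14557 genes had a lower ratio.

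Bid (ENSMUSG00000004446; chromosome 6, 120891930 to 120916853), which caspase-8 cleaves to link death receptors to mitochondria, had 172 reads in the transgenic and 254 in the WT library. At 9.63 against 14.5 CPM, it was 1.503-fold lower (1.23 to 1.83). It stood furthest from 1 of all members, and 753 genes had a lower ratio. The end of Bid lies across from the end of Bcl2l13, on the opposite strand, and 628 of its 3550 exon bases (17.7%) are shared. Bcl2l13 had 968 against 966 reads. The sources used here do not say how reads in the shared stretch were assigned.

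Pmaip1 (ENSMUSG00000024521; chromosome 18, 66458604 to 66465550), which encodes Noxa, a partner of Mcl1, had 33 against 39 reads. At 1.85 against 2.22 CPM, it was 1.203-fold lower, with an interval from 1.97-fold lower to 1.36-fold higher. The interval includes a ratio as low as that of Bid, so a difference of that size was not detectable at this depth.

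Bcl2l11 and Bad, the other BH3-only genes, were near equal in the libraries. Bcl2l11 (ENSMUSG00000027381; chromosome 2, 128126038 to 128162547), which encodes Bim and responds to loss of trophic support, had 256 against 248 reads and 14.3 against 14.1 CPM. Its ratio was 1.01 (0.848 to 1.21). A window of this gene also holds the forkhead letters found in Bbc3. Bad (ENSMUSG00000024959; chromosome 19, 6941861 to 6951898), which growth factor signalling keeps inactive by phosphorylation, had 714 against 692 reads and 40.0 against 39.4 CPM. Its ratio was 1.01 (0.912 to 1.13). Exons of Bad share 524 bases, 20.5% of its length, with Gpr137 on the opposite strand. Those of Bak1 share 437 bases (18.2%) with Ggnbp1 on the opposite strand, and 177 bases (7.35%) with another entry of that name. The counts of Bad and Bak1 could thus hold reads of a neighbour.

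**Figure D1:**
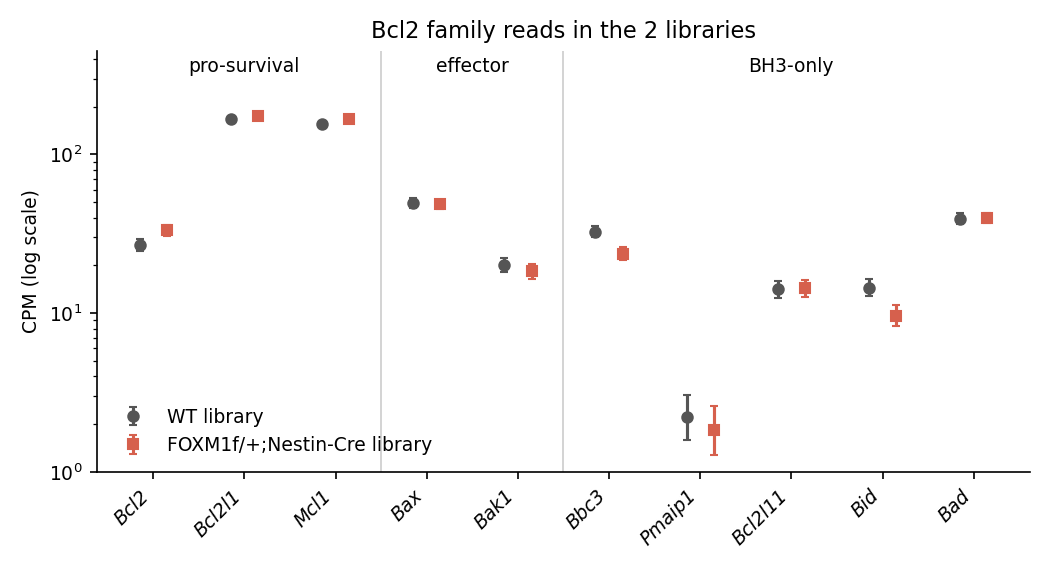
CPM on a log axis for each of the 10 genes, in the WT library (grey circles) and the FOXM1f/+;Nestin-Cre library (red squares), with 1 library per genotype; bars are exact Poisson 95% intervals, counting error only. Bcl2 is higher and Bbc3 and Bid lower in the transgenic library with bars that do not meet. Those of Mcl1 are barely apart, from 160.9 CPM in the transgenic and up to 160.8 CPM in the WT library. The bars of Bcl2l1, Bax, Bak1, Pmaip1, Bcl2l11 and Bad meet.

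The median log2 ratio of the family was -0.003, against -0.009 over all 14557 genes. Of the 10 members, which all passed the minimum of 1 CPM, 1 was higher and 3 were lower by 1.2-fold or more, against 11.5% and 15.7% of all genes. Counting intervals lay above 1 for 2 members and below 1 for 2, against 16.5% and 19.2% of all genes. At least 1.5-fold, 0 members were higher and 1, Bid, was lower, against 2.53% and 5.23%. No member reached 2-fold, against 0.522% of genes higher and 1.83% lower. Ratios of low genes spread widely, and from a mean CPM of 10, which 9 members reach, 1 was higher and 2 lower by 1.2-fold or more, against 6.63% and 7.85% of genes.

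**Figure D2:**
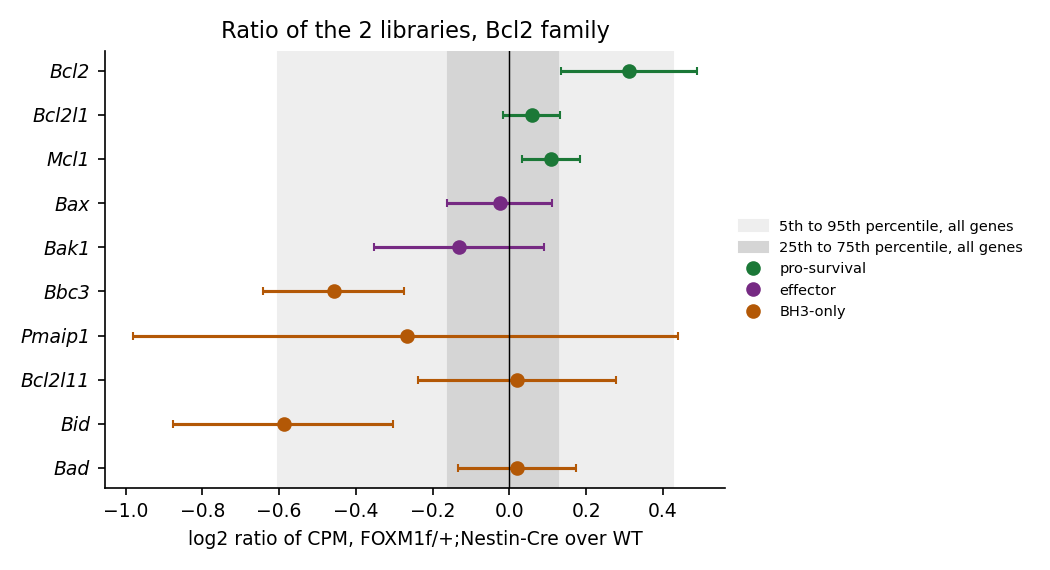
The log2 ratio of CPM, FOXM1f/+;Nestin-Cre over WT, for each of the 10 genes, with 95% counting intervals; colours give the role, and shading gives the range of all 14557 genes. The intervals of Bcl2 and Mcl1 lie above 0 and those of Bbc3 and Bid below 0, while all 10 points are within the range from the 5th to the 95th percentile, -0.60 to 0.43.

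By role, the 3 pro-survival genes all had ratios above 1, with a median log2 ratio of 0.11. The effectors had log2 ratios of -0.03 and -0.13, and with RLE scaling the ratio of Bax was 1. The BH3-only genes ran from -0.59 for Bid to 0.02 for Bad and Bcl2l11, and their median of -0.27 is the value of Pmaip1, whose interval spans 1. Since Bad and Bcl2l11 lay above both effectors, the effector and BH3-only genes did not separate. The lowest pro-survival log2 ratio, 0.06 for Bcl2l1, lay above the highest of the other roles, 0.02, but its interval spanned that value.

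**Figure D3:**
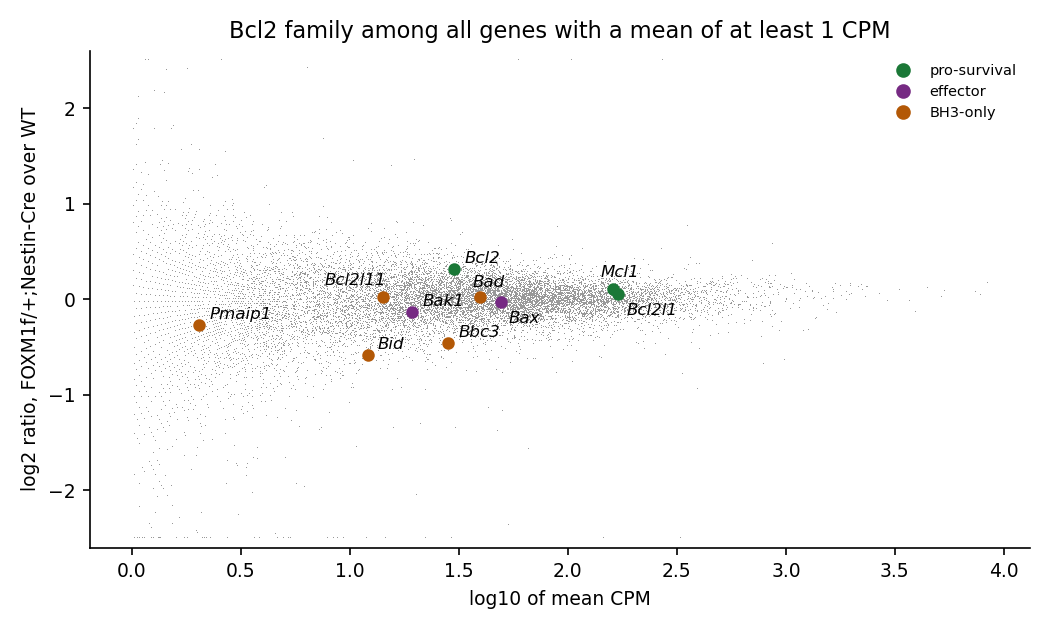
Log2 ratio, FOXM1f/+;Nestin-Cre over WT, against log10 of mean CPM for all 14557 genes (grey; values beyond 2.5 in size are drawn at 2.5) and for the 10 members (coloured by role). Bid and Bbc3 lie below most genes, with 753 and 1121 genes lower, and Bcl2 above most, with 1248 genes higher. Pmaip1 lies where ratios of all genes spread widely.

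Levels can be compared between genes only per length. Per kilobase of merged exons, in the transgenic and the WT library, Mcl1 was at 48.8 and 45.3 CPM, Bcl2l1 at 37.9 and 36.4, and Bax at 30.9 and 31.4. Bad followed at 15.6 and 15.4 CPM per kilobase, Bbc3 at 11.2 and 15.3, and Bak1 at 7.63 and 8.36. The lower end held Bcl2, at 3.64 and 2.93, Bid, at 2.71 and 4.08, Bcl2l11, at 1.79 and 1.76, and Pmaip1, at 0.676 and 0.814. Bcl2, the pro-survival gene with the highest ratio, was thus by this measure the least abundant of its role. The order of the leading genes depends on the gene models: with GENCODE's basic transcripts alone, Bax came first, at 56.1 and 57.1 CPM per kilobase, since its merged length dropped from 1.58 to 0.867 kilobases. Among other changes of place, Bid passed Bcl2 in the transgenic library, where Bid was at 4.40 CPM per kilobase with those transcripts.

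Ratios between members inside a library need no scaling between libraries. The number of Bcl2 reads per Bax read was 0.685 in the transgenic library, against 0.542 in WT. Their quotient was 1.26, with an exact conditional interval from 1.08 to 1.48. The same quotient was 1.10 (0.983 to 1.22) for Mcl1 and 1.06 (0.951 to 1.18) for Bcl2l1, both spanning 1. Bcl2 was the pro-survival gene whose share relative to Bax differed by more than counting error.

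Summed per kilobase, Bcl2, Bcl2l1 and Mcl1 stood at 2.35 times the level of Bax and Bak1 in the transgenic and 2.13 times in the WT library. In raw reads the sums were 6680 against 1197 and 6120 against 1222, a quotient of 1.11 (1.02 to 1.22). Against Bax and Bak1, the pro-survival sum was the larger in both libraries, and more so in the transgenic one. These are transcripts, and the family is known to be controlled at the protein level as well.

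The authors' deposited table marked 1 of the members as significant, beside 1931 marked genes in all, in a table of 20421 genes. Bid was marked, with a fold of 0.665, a p-value of 3.1e-05 and an adjusted p-value of 0.000274 in the authors' deposited table. Bbc3 was not marked in the authors' deposited table, although its adjusted p-value there was smaller, at 8.99e-06. Marked genes in the authors' deposited table differed by 1.501-fold or more in either direction, and Bid stood at 1.503. With TMM or RLE scaling of the libraries, Bid was 1.49- or 1.48-fold lower. The p-values of the authors' deposited table compare 1 column with 1 column and do not measure the spread between embryos.

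Other cell death genes act downstream of the family or control it. The lists below were chosen with earlier results of these data known. Over 4 lists of other cell death genes with 50 measured genes, 5 were higher and 2 lower by 1.2-fold or more. All genes gave 11.5% higher and 15.7% lower, and the counts of each list below are read against these shares.

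Among other relatives of Bcl2, 9 of 12 genes in the table passed the minimum, with a median log2 ratio of 0.00, and 2 were at least 1.2-fold higher and none lower. Bcl2l12, a distant relative, had 131 against 88 reads and a ratio of 1.46 (1.11 to 1.94), and 28.9% of its exon bases are shared with the antisense gene Gm15545, which had 128 against 98 reads. Irf3 shares 4.45% of them and had 940 against 810 reads. Bnip3l, a receptor for the removal of mitochondria, had 2572 against 2674 reads and a ratio of 0.945 (0.895 to 0.998). Bok, an effector-like relative, had 1119 against 1075 reads and a ratio of 1.02 (0.940 to 1.11).

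The apoptosome and caspase list had a median log2 ratio of 0.01 over 13 genes, with 2 at least 1.2-fold higher and 1 lower. It holds genes that act after the mitochondrial membrane opens, and also Fadd and caspase-8, which act at death receptors. Cycs, cytochrome c itself, had 2039 against 1742 reads, a ratio of 1.15 (1.08 to 1.23). The initiator Casp9, at 467 against 524 reads, was 1.14-fold lower (1.01 to 1.30).

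The largest ratios in that list were those of Fadd, Aifm1 and Endog. Fadd, the adaptor of death receptors, had 180 against 112 reads and a ratio of 1.58 (1.24 to 2.02). The X-linked Aifm1, a flavoprotein of mitochondria, had 955 against 728 reads and a ratio of 1.29 (1.17 to 1.42), in libraries that differ in sex. Endog, a mitochondrial nuclease, at 43 against 134 reads, was 3.17-fold lower (2.23 to 4.58). It shares 35.7% of its exon bases with Spout1 on the opposite strand, which had 706 against 702 reads.

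Inhibitors of caspases and their antagonists had a median log2 ratio of 0.03 over 6 measured genes, with 1 at least 1.2-fold higher. That gene was Birc5, or survivin, which also acts in mitosis, at 1077 against 806 reads and a ratio of 1.31 (1.197 to 1.44). The ubiquitin ligase Birc2 stood at 1.13 (1.02 to 1.26) and Diablo, which relieves caspase inhibition, at 1.13 (1.02 to 1.25). The giant inhibitor Birc6 was 1.09-fold lower (1.01 to 1.18) and the protease Htra2 1.19-fold lower (1.05 to 1.35).

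Regulators of the members had a median log2 ratio of 0.00 over 22 genes, with none at least 1.2-fold higher and 1 lower. Trp53, which drives Bax, Bbc3 and Pmaip1, had 3020 against 2681 reads and a ratio of 1.11 (1.05 to 1.17). Jun stood at 1.19 (1.11 to 1.28), Atf4 at 1.11 (1.06 to 1.16) and Dynll1, a light chain that binds Bim, at 1.16 (1.12 to 1.198). Bag1, a partner of Bcl2, at 2127 against 2656 reads, was 1.27-fold lower (1.2 to 1.35). The abundant 14-3-3 genes Ywhae and Ywhaz, whose proteins hold phosphorylated Bad, stood at 1.02 and 1.01.

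**Figure D4:**
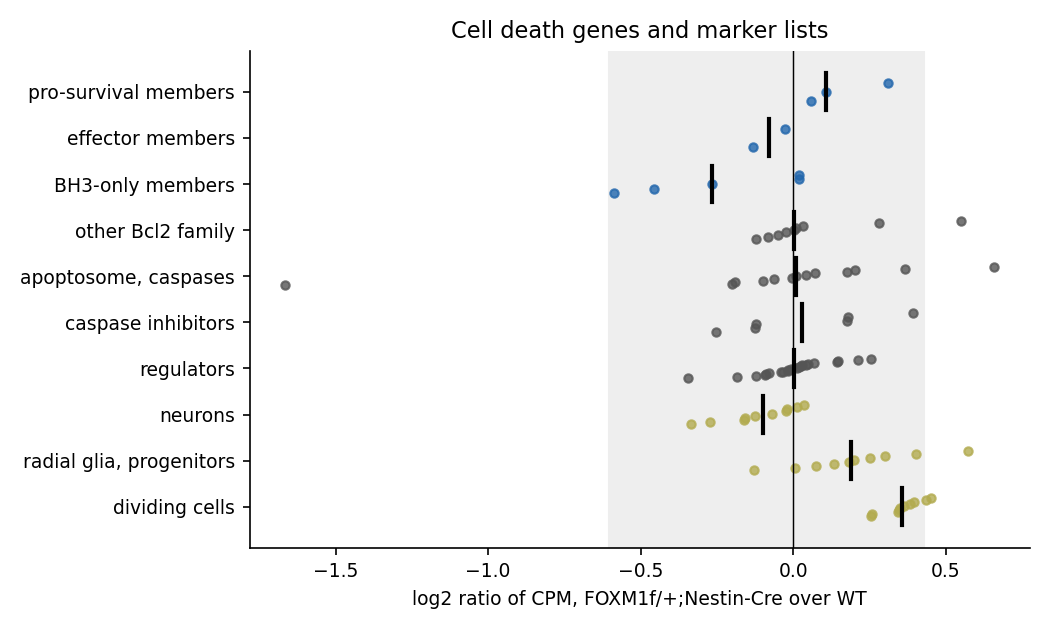
Log2 ratio of CPM, FOXM1f/+;Nestin-Cre over WT, of each measured gene (points) in the 3 roles of the family, in 4 lists of other cell death genes and in 3 marker lists; black bars are list medians, and shading spans the 5th to the 95th percentile of all genes. The medians of the 4 lists of other cell death genes lie between 0.00 and 0.03, and Endog stands apart at -1.67.

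Cell type markers are given beside these ratios, and over all genes 16.5% of intervals lay above 1 and 19.2% below. All 10 markers of dividing cells had intervals above 1, with a median log2 ratio of 0.36 and sums of 1109 against 867 CPM. Of 10 radial glia and progenitor markers, 7 had intervals above 1, with a median of 0.19 and sums of 2394 against 1979 CPM. Of 10 neuronal markers, 7 had intervals below 1 and none above, with a median of -0.10 and sums of 7433 against 7926 CPM.

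Lists of minor cell types held the following values, beside the same shares of all genes, 16.5% of intervals above 1 and 19.2% below. Erythroid genes summed to 1186 against 739 CPM. Of 10 measured, 6 had intervals above 1 and 4 had intervals spanning 1, with log2 ratios from -0.12 to 2.65. Bcl2l1, known to be abundant in erythroid cells, had a ratio of 1.04 (0.989 to 1.10). Microglia markers summed to 54.1 against 63.8 CPM, with 5 of 10 intervals below 1, and endothelial markers to 160.0 against 186.5 CPM, with 4 of 9 below 1. No marker of these lists was at 0 in either library. The part of cell type content in the ratios of the Bcl2 family was not tested.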

How the data were processed

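Libraries were built from 2 ug of total RNA, extracted with Trizol, per the labels' protocols. Bowtie2 2.2.3, TopHat2 2.0.12, HTSeq 0.6.0 and the build mm9 are named in the submitters' processing notes. The coordinates of the table match GRCm38 instead: 18699 of 20388 identifiers found in GENCODE M21 (91.7%), and 8 of the 10 members, had the same start and end. The sources used here give neither the strand setting nor the handling of shared reads.

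The authors deposited raw read counts and normalized values for 1 column per genotype, per the file headers. The deposited normalized values are CPM, where the authors set counts of 0 to 0.5 reads. The authors' deposited fold column is the ratio of the CPM values, and their deposited log2 column is its logarithm. The sources used here do not name the test behind the deposited p-values.

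Samples were grouped by the genotype label. With 1 column per genotype no test was run. CPM ratios were given exact conditional (Clopper-Pearson) 95% intervals, and the 14557 genes with a mean CPM of 1 or more were the background. Read ratios between genes were compared by exact conditional odds ratio intervals. Exon lengths and overlaps came from GENCODE M21, and promoters from RefSeq tables. The members and the gene lists were chosen with earlier results of these data known. All 10 members are named. From each list of other cell death genes, up to 5 genes with the largest ratios among those with an interval on a single side of 1 are named, and the 2 of highest mean CPM. A gene that this rule takes is not reported here. Marker lists are given by their counts and sums. Alternatives were TMM and RLE factors, totals over autosomal genes, other minimums, folds and intervals, and other denominators and gene models. The interval procedure was run on simulated counts that held counting error alone, so that run says nothing of the spread between embryos. Python 3.11.15, NumPy 2.4.6, SciPy 1.17.1, pandas 2.3.3, Matplotlib 3.10.9, R 4.3.3 and edgeR 4.0.16 (scaling factors only) were used.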

Additional observations from a re-analysis of the deposited data

How the results depend on the processing

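The ratios of all 10 members stayed within their counting intervals under TMM factors, RLE factors and autosomal totals, 30 values in all. The TMM and RLE factors lay between 0.991 and 1.009, and autosomal totals shifted the ratios less, so the ratios had little room to move. No paired analysis was possible because each genotype has 1 column, and for the same reason no replicate could be left out. Counts of members depended on the fold: at least 1.2-fold, 1 was higher and 3 lower, at 1.5-fold 0 and 1, and at 2-fold 0 and 0. With TMM or RLE factors Pmaip1 left the group at least 1.2-fold lower, leaving 2, against 14.7% or 14.1% of all genes. Bcl2l1 then joined those with an interval above 1, making 3, against 18.8% or 20.3% of all genes. For the 4 lists of other cell death genes, 5 were higher and 2 lower, against 11.5% and 15.7% of all genes. Without a minimum these became 8 and 3, against 18.2% and 24.0%. From a mean CPM of 10 they were 2 and 1, against 6.63% and 7.85%, and at 1.5-fold 1 and 1, against 2.53% and 5.23%. The pro-survival level over that of Bax and Bak1, 2.35 in the transgenic and 2.13 in the WT library per kilobase, was 5.58 and 5.01 in raw reads, 1.28 and 1.10 with the BH3-only genes added below the line, and 1.52 and 1.39 with basic transcripts, a choice made after seeing the data. With the BH3-only genes added and basic transcripts used together, it was 0.964 and 0.833, so the pro-survival sum was then the smaller in both libraries. The value was higher in the transgenic library in each case. Depth limits Pmaip1 most, at 33 and 39 reads.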

Other observations

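Of 360 genes that carry the term apoptotic process in the authors' table and passed the minimum, 47 (13.1%) were higher and 35 (9.72%) lower by 1.2-fold or more, against 11.5% and 15.7% of all genes. Their median log2 ratio was 0.02.

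The next lists were made after the ratios had been seen. Of 14 measured genes of death receptors and dependence receptors, 1 was at least 1.2-fold higher and 3 lower (7.14% and 21.4%, against 11.5% and 15.7% of all genes), with a median log2 ratio of -0.10. Cflar, which blocks caspase-8, had 251 against 198 reads and a ratio of 1.25 (1.03 to 1.51), while the adaptor Tradd, at 135 against 181 reads, was 1.36-fold lower (1.09 to 1.72). Tnfrsf21, a death receptor of neurons, at 1083 against 1235 reads, was 1.16-fold lower (1.07 to 1.26). Of 14 genes of mitochondrial fission and fusion, which shape the membrane that Bax and Bak1 open, none was at least 1.2-fold higher and 1 was lower, beside the same shares of all genes. That gene, Mief2, an adaptor of the fission enzyme, at 312 against 442 reads, was 1.44-fold lower (1.24 to 1.67). Mief1, its close relative, had 824 against 683 reads and a ratio of 1.19 (1.07 to 1.31).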
